A study of Mus musculus with 12 samples.

Results

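The 10 genes of one pathway are described here, those that make, load and carry the peptides shown by MHC class I molecules: H2-K1, H2-D1, B2m, Tap1, Tap2, Tapbp, Psmb8, Psmb9, Psmb10 and Nlrc5. They were picked by name as members of the pathway, with earlier results of these data known, and are 10 of 54119 genes with summed counts in cerebral vessels of the mouse forebrain. The study asked how the brain's vessels respond to inflammation outside the brain. Wild type C57BL6 mice aged 2 to 3 months received LPS, a bacterial endotoxin, intraperitoneally at 10 mg/kg, and vessels were isolated after 15 min, 30 min or 4 h (the groups LPS 15 min, LPS 30 min and LPS 4 h). The control group received PBS. Each of the 4 groups had 3 libraries, and each library pooled the vessels of 1 male and 1 female, so neither the sexes nor single animals can be told apart. Libraries held 18.3 to 25.9 M estimated fragments.

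In nearly every nucleated cell, worn or viral proteins are cut by the proteasome, and some of the resulting peptides are shown on the surface to CD8 T cells. The proteasome has 3 catalytic subunits, Psmb6, Psmb7 and Psmb5. In the immunoproteasome these are replaced by Psmb9, Psmb10 and Psmb8, which favour cuts that leave peptides suited to class I. Tap1 and Tap2 together form the pump that moves peptides into the endoplasmic reticulum, and Tapbp (tapasin) holds the pump beside an empty class I molecule until a peptide fits. H2-K1 and H2-D1 encode the classical heavy chains of the mouse, and B2m encodes the light chain that all of them need. Nlrc5 is a transactivator that gathers on class I promoters and on those of the loading genes. In brain endothelium, class I is the surface through which T cells can recognise the vessel wall, and interferons and NF-κB are its best known inducers.

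Of the 10 genes, 7 lie on chromosome 17, in the mouse MHC, on build GRCm38. Psmb9 (34181987 to 34187764, minus strand), Tap1 (34187553 to 34197225, plus strand), Psmb8 (34197721 to 34201454, plus strand) and Tap2 (34203527 to 34216321, plus strand) lie side by side within 34335 bases. Tap1 and Psmb9 are read in opposite directions and overlap by 212 bases at their starts in this annotation, while 225 bases lie between their RefSeq starts. Tapbp (33915899 to 33929292), H2-K1 (33996017 to 34000347) and H2-D1 (35262730 to 35267499) lie on either side of this cluster. B2m lies on chromosome 2 (122147686 to 122153083), and Psmb10 (105935735 to 105938444) and Nlrc5 (94434356 to 94527272) lie on chromosome 8.

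The class I promoter is one of the best described in immunology, and its elements can be read in the sequence, so the windows of H2-K1 and B2m are shown. Both run 5′ to 3′ on the strand of the gene over the 200 bases before the RefSeq start on GRCm38.p6. H2-K1 is chr17:34000348-34000547 on the minus strand and B2m is chr2:122147487-122147686 on the plus strand. Capitals mark letters that match the kappa B site GGGNNNTCC, the interferon-stimulated response element as GAAANNGAA or GAANNGAAA, the X2 box TGACG or the Y box CCAAT, each on either strand. Matches to the kappa B site overlap their own reverse complement.
H2-K1: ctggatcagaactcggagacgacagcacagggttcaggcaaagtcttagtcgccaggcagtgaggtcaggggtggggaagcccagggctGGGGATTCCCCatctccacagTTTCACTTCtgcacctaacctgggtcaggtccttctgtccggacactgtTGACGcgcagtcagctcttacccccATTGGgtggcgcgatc
B2m: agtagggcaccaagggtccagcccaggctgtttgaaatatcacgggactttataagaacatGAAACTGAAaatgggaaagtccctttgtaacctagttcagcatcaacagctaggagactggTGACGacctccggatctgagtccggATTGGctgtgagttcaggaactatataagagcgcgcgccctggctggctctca

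H2-D1 carried these elements of H2-K1 in the same order, followed by another CCAAT 53 to 49 bases before its start. From the kappa B site to the interferon element, H2-K1 (chr17:34000429-34000458) and H2-D1 (chr17:35262923-35262952) were identical at 29 of 30 bases.
H2-K1: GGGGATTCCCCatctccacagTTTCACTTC
H2-D1: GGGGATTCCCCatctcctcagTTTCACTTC
From the X2 box to the Y box the spacing was 20 bases in H2-K1 (chr17:34000359-34000388), H2-D1 (chr17:35262993-35263022) and B2m (chr2:122147609-122147638), on the strand of each gene, with 23 of 30 bases shared by H2-K1 and H2-D1. TGACG and ATTGG at that distance, in either orientation, were found in 27 of 32505 promoter windows of this length (0.0831%). This spacing was looked for after the sequences had been seen.
H2-K1: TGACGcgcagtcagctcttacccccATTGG
H2-D1: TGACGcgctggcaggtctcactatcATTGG
B2m: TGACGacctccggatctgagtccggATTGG

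RefSeq windows were matched for 8 of the 10 genes, all but Tap2 and Nlrc5. Either form of the interferon element was found in 3 of the 8 (H2-K1, H2-D1 and B2m) and in 9.97% of all windows. The kappa B letters as GGGNNNTCC were found in H2-K1 and H2-D1 and in 12.7% of all windows. A longer spacer between GGG and TCC was not searched. The B2m window printed above holds such letters, gggaaagtccc, on the strand of the gene. TGACG was found in 5 of the 8, including one copy that Tap1 and Psmb9 share on opposite strands, and in 15.7% of all windows. CCAAT was found in 5 of the 8 and in 29.3% of all windows. The last motif searched, the gamma-activated site TTCNNNGAA, was found in Psmb8 and in 5.51% of all windows. Among the constitutive subunits, windows were matched for Psmb5 and Psmb6, and Psmb6 held the interferon element. These are matches of letters and no binding was measured.

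At 4 h post LPS all 10 genes rose. The call was made where edgeR's threshold test gave a Benjamini-Hochberg adjusted p below 0.05 for a change beyond 0.58 in log2 units (1.5-fold), over 19150 genes tested. Every one of the 10 had counts high enough to be tested. Calls of higher expression covered 19.1% of tested genes in this comparison, and calls of lower expression 13.9%. The 10 genes had a median log2 fold change of 2.66, beside -0.01 for all tested genes. Nlrc5 and Tap1 changed most and B2m and H2-D1 least, by 1.64 to 4.99 on the log2 scale. At 15 and 30 min none of the 10 was called.

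**Figure D1:**
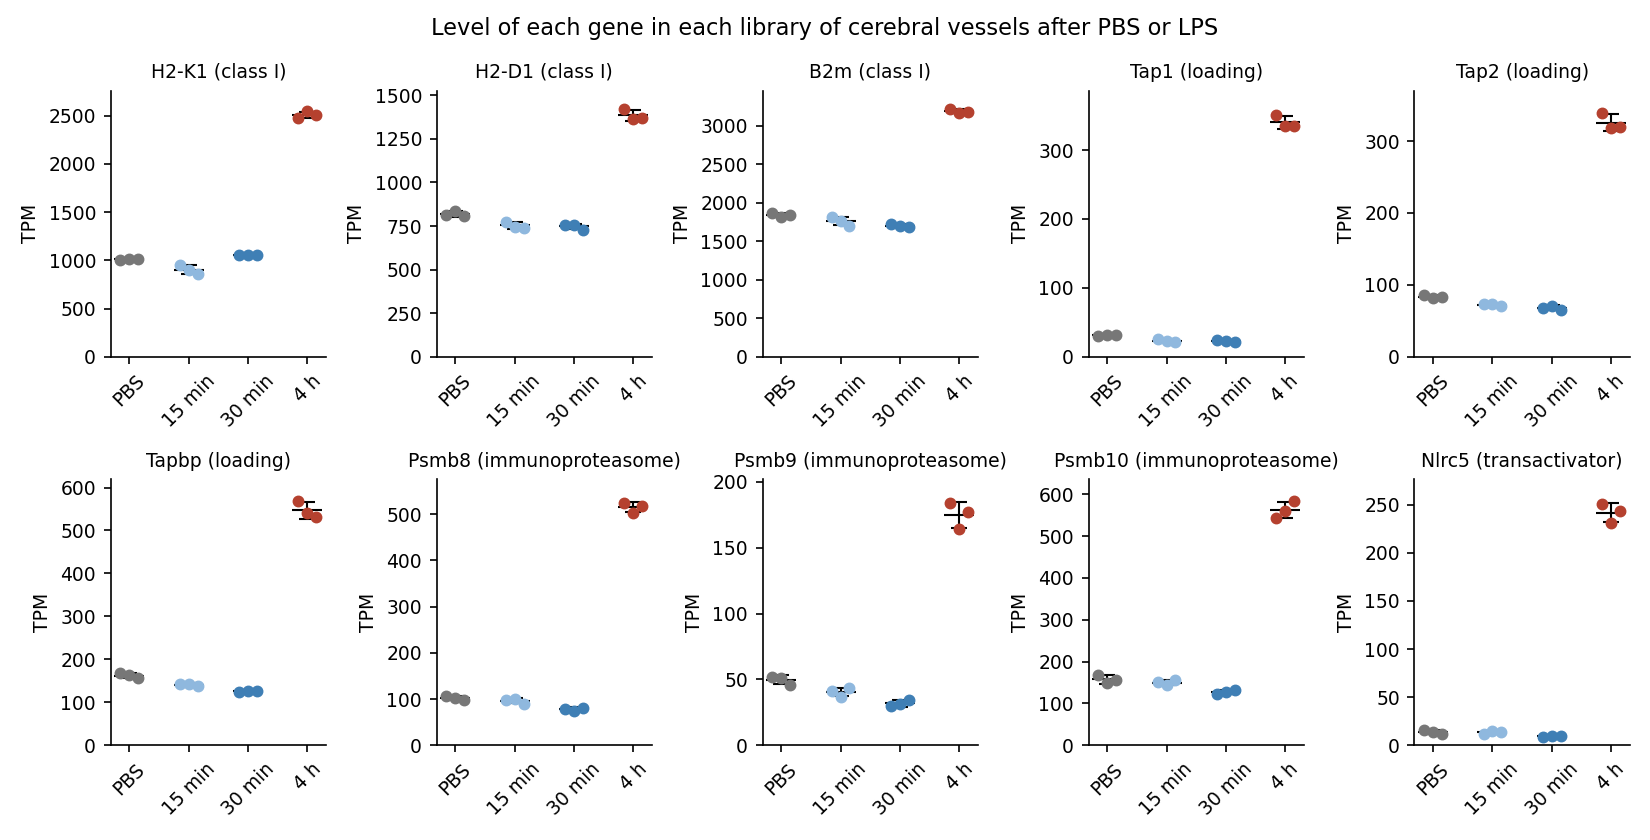
Level in TPM (transcript abundance scaled for length and depth) of each of the 10 genes, with 1 point per library, the mean as a line and the SD as an error bar (n = 3). Each panel has its own axis from 0. In every panel the 3 LPS 4 h libraries lie above all 9 others.

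The scale of these changes depends on how libraries are made comparable. The composition (TMM) factors used here were 1.16 to 1.17 in PBS and 0.715 to 0.718 at LPS 4 h. With library size alone, all log2 changes at 4 h came out 0.70 lower at the median, and the share of called genes that were higher was 18.2% in place of 58%. The 10 genes were called higher under both scalings, with log2 changes of 0.94 to 4.29 under library size alone. TPM carries no such factor and is also scaled for transcript length, so it differs from library size alone as well. A fold read from the TPM values below is smaller than the fitted fold beside it.

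Vessels contain several cell types, and in bulk RNA fewer cells of a type and less RNA per cell cannot be told apart. Endothelial markers were high, with a summed TPM of 6426 to 6714 in PBS over 6 genes and 1552 to 1594 at LPS 4 h, when 4 were called lower and Cdh5 higher. Mural markers ran from 2005 to 2039 and from 1019 to 1049, with no call among 6, though all 6 were called lower with library size alone. The 6 neutrophil markers summed to 13.2 to 19.2 TPM in PBS and 567 to 592 TPM at LPS 4 h, all 5 that were tested were called higher at 4 h (median log2 change 6.11), and Ly6g was at 0 in PBS and at most 0.749 TPM at LPS 4 h. Perivascular macrophage markers summed to 26.5 to 27.6 and 22.1 to 24.8 TPM, with 2 of 3 called higher, and with library size alone 0 higher and 1 lower. Of 5 microglia markers 3 were called lower and none higher, and of 6 lymphocyte markers tested 1 was called higher and 2 lower. Of 3 general leukocyte markers, Ptprc (CD45) was called higher, by 2.22 on the log2 scale, while Coro1a (0.47) and Laptm5 (-0.30) were not called, and the 3 summed to 67.9 to 72.0 TPM in PBS and 42.2 to 45.1 TPM at LPS 4 h. Astrocyte, oligodendrocyte, neuron and fibroblast markers summed to a mean of 187, 214, 146 and 157 TPM in PBS. Their means at LPS 4 h were 143, 149, 55.5 and 82.3 TPM. Of 4 astrocyte markers 2 were called higher, though DESeq2 called 0. Among oligodendrocyte and fibroblast markers 1 of 3 each was called lower, and no neuron marker was called. With library size alone more were called lower: 5 of 6 endothelial, 5 of 5 microglia and 3 of 3 neuron markers, and 2 of 3 each of oligodendrocyte and fibroblast markers. Lymphocyte markers then gave 1 higher and 3 lower, and astrocyte and leukocyte markers 1 higher and 1 lower each. The 5 neutrophil markers stayed higher. The part of these cell types in the rise of the 10 genes was not tested.

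Heavy and light chains of class I were the most abundant RNAs of the 10. H2-K1 measured 1001, 1016 and 1010 TPM in the 3 PBS libraries and 2481, 2546 and 2503 TPM at LPS 4 h. The fitted fold was 4.54 (log2 fold change 2.18 ± 0.02 SE, edgeR adjusted p = 3.6e-26). H2-D1 measured 812, 838 and 810 TPM in PBS and 1420, 1362 and 1372 TPM at LPS 4 h, a fitted fold of 3.12 (log2 1.64 ± 0.02, edgeR adjusted p = 9.6e-23). B2m, at 1874, 1823 and 1838 TPM in PBS, was the highest of the 10 in every group and reached 3219, 3167 and 3182 TPM. Its fold was 3.18 (log2 1.67 ± 0.02, edgeR adjusted p = 3.7e-23). The 3 genes with the highest TPM in PBS were thus the 3 with the smallest log2 changes, and for each the ranges of PBS and LPS 4 h lay far apart.

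The heavy chains share sequence with each other. Of the distinct 31-base words in the main H2-K1 transcript, 23.3% occur in transcripts of other genes, 16.9% in H2-D1, and of those in the main H2-D1 transcript, 27.5% do. The division of fragments between them is therefore an estimate. When the counts of 30 H2-K, H2-D, H2-Q, H2-T and H2-M genes were summed to 1 feature, it rose by 2.26 ± 0.02 SE on the log2 scale at 4 h (edgeR adjusted p = 1.2e-27). H2-K1 and H2-D1 held 68.8% of these counts in PBS and 53.6% at LPS 4 h. The main coding transcripts of B2m and the 3 immunoproteasome genes shared none of their 31-base words with transcripts of another gene. Reverse complements were not searched.

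Tap1 rose most among the loading genes. It measured 30.5, 31.8 and 32.2 TPM in PBS and 352, 335 and 335 TPM at LPS 4 h, a fitted fold of 19.9 (log2 4.32 ± 0.04, edgeR adjusted p = 2.7e-28). Its partner Tap2 measured 85.4, 81.9 and 83.6 TPM in PBS and 339, 318 and 320 TPM at LPS 4 h, a fold of 7.23 (log2 2.85 ± 0.03, edgeR adjusted p = 3.1e-26). In gene TPM every PBS library held less Tap1 than Tap2, and at LPS 4 h the ranges of the pair overlapped. With protein-coding transcripts alone the ranges overlapped in PBS, at 25.9 to 26.3 TPM for Tap1 and 25.7 to 27.4 TPM for Tap2. At LPS 4 h coding Tap1 then lay higher, at 292 to 303 TPM against 89.6 to 92.9 TPM for Tap2. Tapbp went from 168, 163 and 155 TPM to 568, 541 and 531 TPM, a fold of 6.27 (log2 2.65 ± 0.03, edgeR adjusted p = 1.1e-26). The 3 loading genes thus lay between 2.65 and 4.32 on the log2 scale, each above the 3 genes of the class I molecule itself.

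The immunoproteasome genes rose by 2.57 to 3.25 on the log2 scale. Psmb8 (beta 5i) measured 106, 102 and 97.4 TPM in PBS and 524, 502 and 518 TPM at LPS 4 h, a fold of 9.53 (log2 3.25 ± 0.04, edgeR adjusted p = 2.4e-25). Psmb9 (beta 1i), the least abundant of the 3, measured 52.1, 51.1 and 45.8 TPM in PBS and 184, 164 and 177 TPM at LPS 4 h, a fold of 5.93 (log2 2.57 ± 0.05, edgeR adjusted p = 1.3e-20). Psmb10 (beta 2i) measured 168, 148 and 157 TPM in PBS and 544, 560 and 583 TPM at LPS 4 h, a fold of 6.38 (log2 2.67 ± 0.03, edgeR adjusted p = 5.3e-25). Psmb9 and Tap1, whose starts are neighbours, thus stood far apart in log2 change, at 2.57 and 4.32.

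Nlrc5 changed most of the 10. It measured 15.4, 13.6 and 11.4 TPM in PBS, the lowest of the set, and 250, 231 and 244 TPM at LPS 4 h. The fitted fold was 31.8 (log2 4.99 ± 0.04, edgeR adjusted p = 1.5e-28). At LPS 4 h it stood above Psmb9 in every library in gene TPM. With protein-coding transcripts alone it stood below, at 46.7 to 47.6 TPM against 132 to 143 TPM for Psmb9.

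In order of the log2 change at 4 h, Nlrc5, Tap1, Psmb8 and Tap2 came first, followed by Psmb10, Tapbp and Psmb9, then H2-K1, and last B2m and H2-D1. Psmb10 and Tapbp differed by 0.03 with a combined SE of 0.04, and B2m and H2-D1 by 0.03 with a combined SE of 0.03. Tapbp and Psmb9 differed by 0.08 with a combined SE of 0.06. The other neighbours in the order were apart by at least 0.18, with combined SEs of 0.03 to 0.06. Summed over the 10 genes, TPM was 4273 ± 36.6 (SD, n = 3) in PBS and 9791 ± 80.2 at LPS 4 h, or 0.427% and 0.979% of all TPM.

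**Figure D2:**
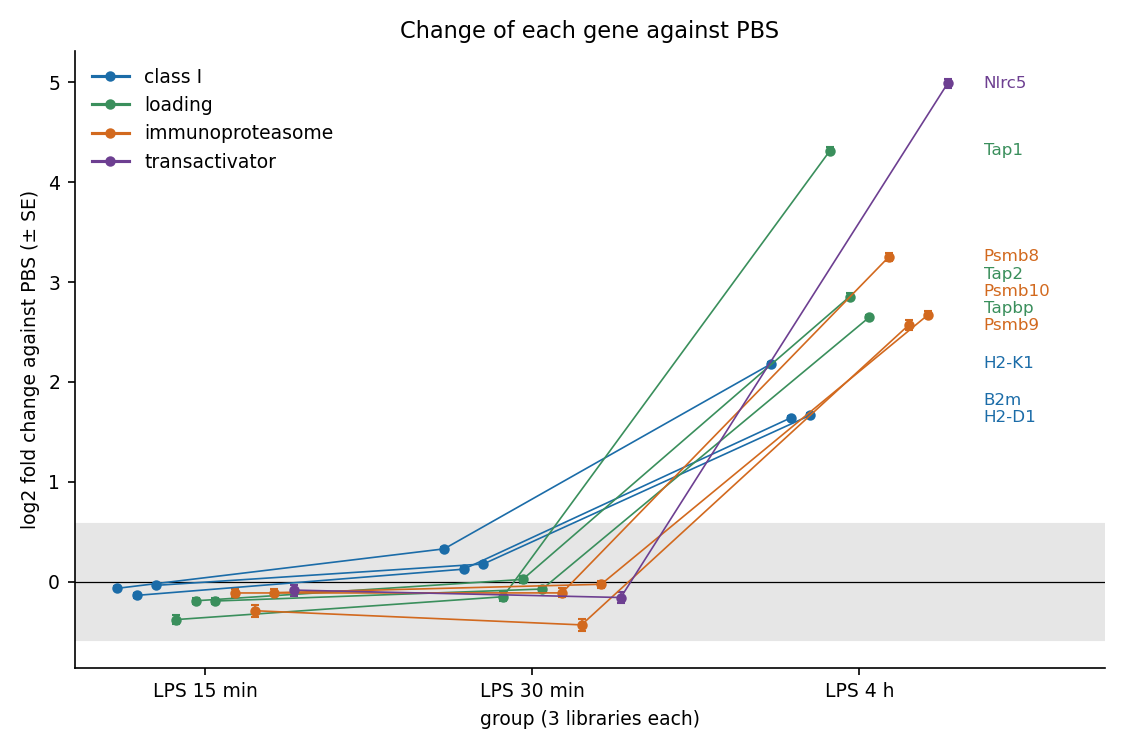
Log2 fold change of each gene against PBS at LPS 15 min, LPS 30 min and LPS 4 h (points set side by side, ± SE, 3 libraries per group), coloured by role; the grey band is the null of 0.58 in either direction. All points at 15 and 30 min lie within the band, and all at 4 h lie above it, from 1.64 (H2-D1) to 4.99 (Nlrc5).

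At LPS 15 min none of the 10 genes was called, against 4.25% of all genes in either direction. In edgeR's threshold test none of the 10 had an unadjusted p below 0.05, and DESeq2 and limma with the same null also called 0. All 10 fitted log2 changes were below 0, from -0.38 for Tap1 to -0.04 for B2m, with a median of -0.12. Tap1 measured 25.2, 22.6 and 21.4 TPM, below each PBS library. Against a null of no change, edgeR's quasi-likelihood test gave 8 of the 10 an adjusted p below 0.05, all but B2m and Nlrc5, where 38.6% of all genes passed. On the CPM scale (counts scaled by library size and TMM factor) 7 of the 10 did not overlap with PBS, beside 49.3% of all genes.

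At LPS 30 min none of the 10 was called either, against 4.62% of all genes, with none at an unadjusted p below 0.05 in edgeR and 0 calls by DESeq2 and limma. H2-K1 had the highest log2 change, 0.33 ± 0.02, with 1054, 1056 and 1058 TPM against 1001 to 1016 TPM in PBS. B2m (0.18 ± 0.02) also lay above 0 on the TMM scale, while its TPM of 1725, 1693 and 1691 lay below PBS, and H2-D1 (0.13 ± 0.02) came to -0.04 with library size alone. Psmb9 had the lowest log2 change, -0.43 ± 0.06, with 29.5, 31.3 and 34.4 TPM against 45.8 to 52.1 TPM in PBS. With no fold limit 7 of the 10 had an adjusted p below 0.05 in edgeR's quasi-likelihood test, 3 above and 4 below PBS, where 36.9% of all genes passed. On the CPM scale 6 of the 10 did not overlap with PBS, beside 46.7% of all genes.

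Between LPS 15 min and LPS 30 min none of the 10 was called, beside 4.76% of all genes, none had an unadjusted p below 0.05 in edgeR, and DESeq2 and limma called 0. With no fold limit 6 of the 10 differed, all higher at 30 min on the TMM scale and by 0.12 to 0.40, where 37.4% of all genes passed. These were the 3 genes of the class I molecule and the 3 loading genes, and of them Tapbp came to -0.02 with library size alone. Between LPS 30 min and LPS 4 h all 10 were called higher, beside 17.0% of all genes, by 1.49 (B2m) to 5.15 (Nlrc5) on the log2 scale. With no fold limit 10 of 10 also passed at LPS 4 h against PBS, beside 68.5% of all genes, and 10 of 10 did not overlap, beside 70.9%. The comparisons with PBS share their control libraries.

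The RNA of each immunoproteasome subunit beside its constitutive counterpart was read as a ratio of gene TPM within each library, which no scaling between libraries can move. In PBS the share of Psmb8 in the sum of Psmb8 and Psmb5 was 48.5%, 43.3% and 43.7%, and at LPS 4 h it was 87.1%, 87.6% and 87.8%. Psmb9 was 18.7%, 19.2% and 17.2% of Psmb9 and Psmb6 in PBS and 57.8%, 53.7% and 54.4% at LPS 4 h. Psmb10 was 59.8%, 56.2% and 58.7% of Psmb10 and Psmb7 in PBS and 86.7%, 87.3% and 87.9% at LPS 4 h. For each pair the 3 LPS 4 h libraries lay above the 9 others. The log2 ratio was higher than in PBS by 3.09, 2.46 and 2.30 in these pairs, or 8.50-fold, 5.51-fold and 4.94-fold. A two-sided exact permutation test gave p = 0.1 for each of the 3, the smallest that 3 libraries against 3 can give. At LPS 30 min the shares were 41.4% ± 1.7, 14.3% ± 1.2 and 56.9% ± 0.56 (SD, n = 3) for the pairs of Psmb8, Psmb9 and Psmb10, and at LPS 15 min 43.8% ± 2.6, 16.4% ± 0.82 and 60.0% ± 0.60. The Psmb9 share was below that of every PBS library in all 6 libraries of these groups, the highest of them at 17.1%.

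These shares count every transcript of a gene, and in PBS a mean of 52.4% of Psmb10 TPM and 36.4% of Psmb8 TPM lay in transcripts annotated as retained introns. With protein-coding transcripts alone on both sides, a setting chosen after seeing the data, Psmb10 was 36.7% ± 1.4 (SD, n = 3) of its pair in PBS, below 50%, and 72.5% ± 0.37 at LPS 4 h. Psmb8 was 34.4% ± 1.6 and 81.1% ± 1.2 of its pair, and Psmb9 17.2% ± 1.2 and 56.3% ± 2.1. The log2 ratios at 4 h were then higher than in PBS by 3.04, 2.64 and 2.18 for Psmb8, Psmb9 and Psmb10. At LPS 15 min the coding share of Psmb9 overlapped with PBS, at 16.3% to 17.8% against 15.9% to 18.1%.

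**Figure D3:**
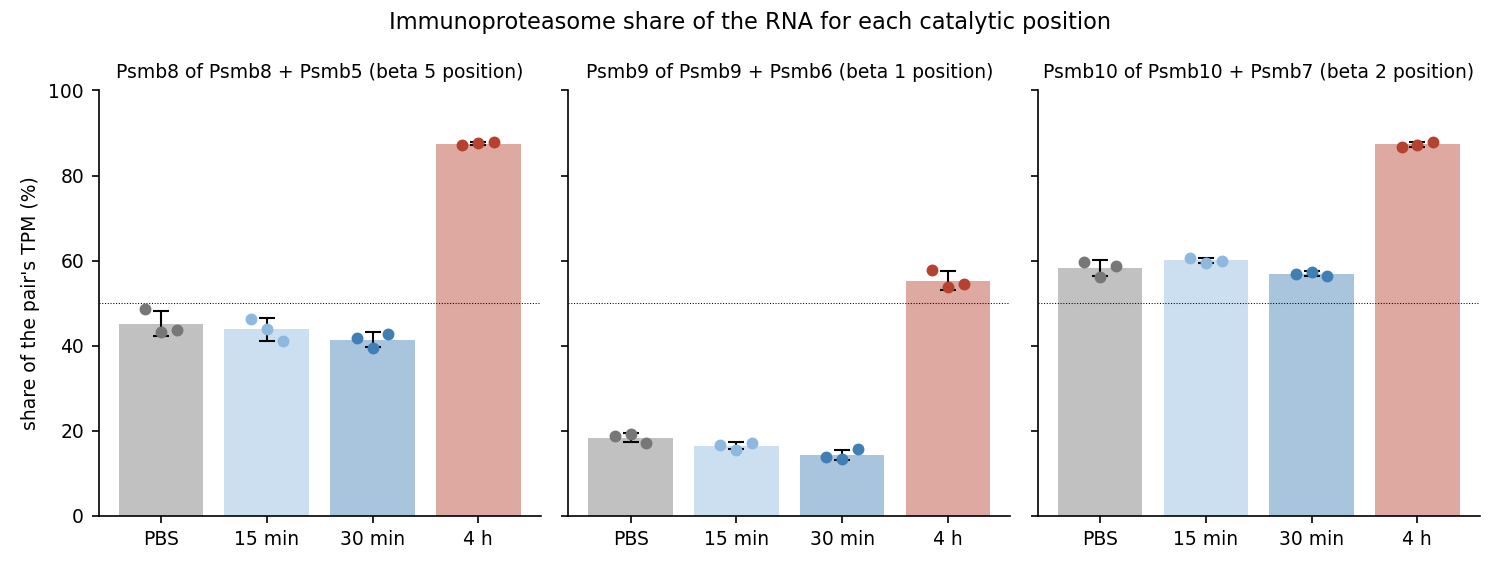
Share of the immunoproteasome subunit in the summed TPM of each catalytic pair, in percent, over all transcripts of each gene (retained introns included), with bars for group means, points for libraries and error bars for the SD (n = 3); the dotted line marks 50%. At LPS 4 h the shares average 87.5%, 55.3% and 87.3% for the beta 5, beta 1 and beta 2 positions, against 45.2%, 18.4% and 58.2% in PBS.

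The constitutive subunits themselves were not called at 4 h in any direction, with none of the 3 at an unadjusted p below 0.05 in edgeR's threshold test and 0 calls by DESeq2. Their log2 changes were 0.13 ± 0.06 for Psmb5, 0.24 ± 0.05 for Psmb6 and 0.43 ± 0.05 for Psmb7 on the TMM scale, and -0.58, -0.46 and -0.28 with library size alone. In TPM, Psmb5 averaged 124 ± 10.4 (SD, n = 3) in PBS and 73.5 ± 3.5 at LPS 4 h, Psmb6 221 ± 6.3 and 141 ± 7.1, and Psmb7 113 ± 2.3 and 81.7 ± 1.5. The direction of these 3 genes therefore depends on the scale, and the direction of the ratios does not.

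The rest of the proteasome was described by lists. Of 11 subunits common to both kinds of 20S core, 5 were called higher at 4 h and none lower, with a median log2 change of 0.67. The 4 with the largest change were Psma5 (1.40), Psma3 (1.34), Psma6 (1.2) and Psmb4 (1.01), and Psmb3 lay at -0.18. With library size alone only 1 was called higher, 1 was called lower and the median was -0.03. Of 9 genes for activators and assembly factors, 5 were called higher and none lower. Psme2 (2.49) and Psme1 (2.14), which form the PA28 cap that opens the core for peptide release, came first. Psmg4, an assembly chaperone, followed at 1.21 and Psme3 at 0.89, while Psmg2 (-0.58) and Psmg3 (-0.17) lay below 0 and were not called. With library size alone 2 of these 9 were called higher and 2 lower. The thymus subunit Psmb11 (1.78, not called) and the testis subunit Psma8 (called lower, -1.72) were close to 0 in level, at most 0.309 and 5.93 TPM in a library of either group.

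**Figure D4:**
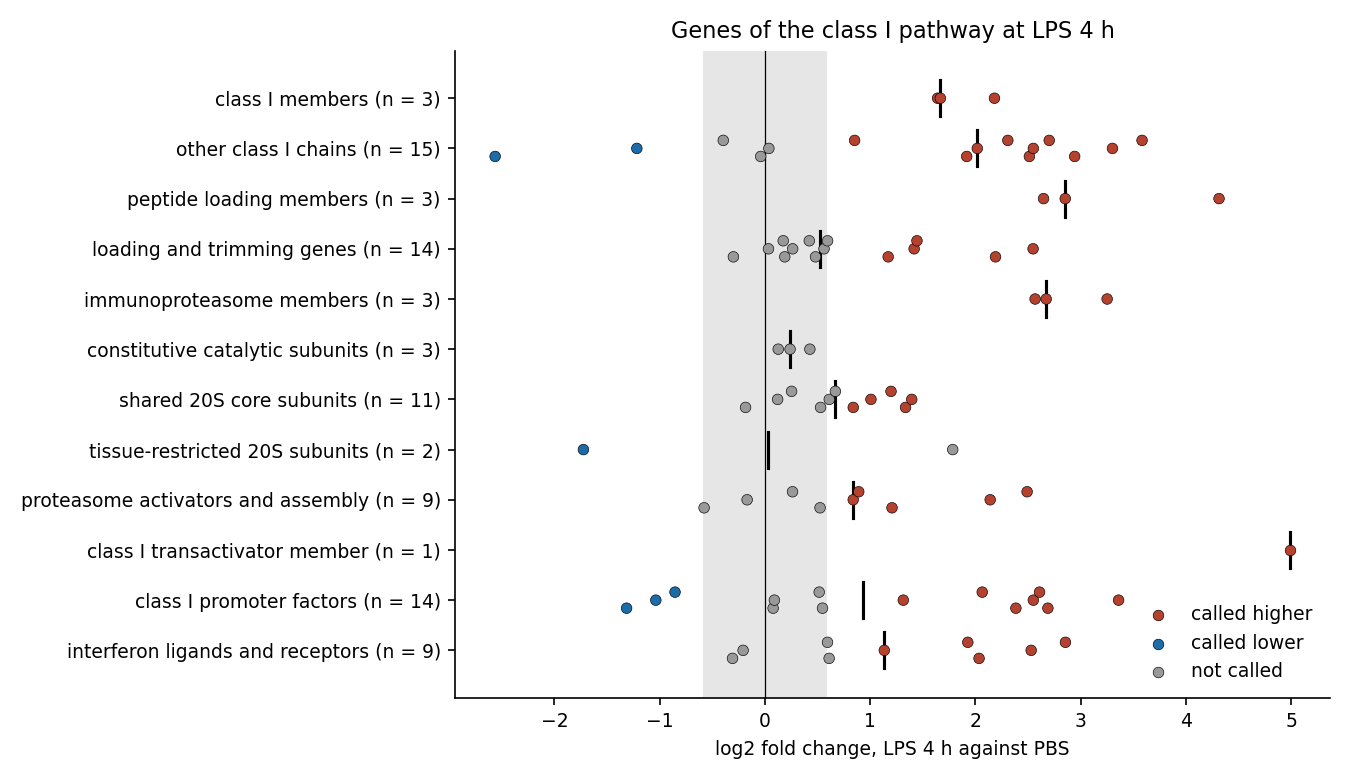
Log2 fold change at LPS 4 h against PBS for each tested gene of the pathway lists, by list, with the median as a black bar, the null of 0.58 in grey and calls by colour. The 3 immunoproteasome genes lie between 2.57 and 3.25, while the 3 constitutive subunits lie between 0.13 and 0.43 and carry no call.

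The loading machinery outside Tap1, Tap2 and Tapbp was mixed. Of 14 genes for chaperones and peptide trimming, 5 were called higher and none lower, with a median log2 change of 0.52. Tapbpl, the second peptide editor, rose by 2.55, the aminopeptidase Lap3 by 2.19, the chaperone Hspa5 by 1.45 and the peptidase Tpp2 by 1.42. The general chaperones of the class I loading complex, Calr (0.17), Canx (0.48) and Pdia3 (0.03), named after their values were seen, were not called, and Thop1 lay at -0.30. With library size alone 4 of the 14 were called higher and 2 lower, and the median turned to -0.18.

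Other class I and class I-like chains were mostly higher at 4 h. Of 18 listed, 15 were tested, and 10 were called higher and 2 lower at 4 h, with a median log2 change of 2.02. H2-Q6 (3.58), H2-Q4 (3.30), H2-Q7 (2.94) and H2-T22 (2.70) had the largest log2 changes that were higher, beside 2.18 for H2-K1 and 1.64 for H2-D1. H2-Q4 went from 195 ± 4.2 (SD, n = 3) to 1077 ± 18.7 TPM, and stayed below the 1362 to 1420 TPM of H2-D1. In the opposite direction went Fcgrt, the neonatal Fc receptor, by -2.56 and H2-Q1 by -1.22. Mr1 lay at -0.39 and Hfe at -0.04, with no call. With library size alone 9 were called higher and 4 lower. The H2-Q and H2-T genes are near copies, so the values of single genes are uncertain.

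Among 14 factors known to act on class I promoters, 7 were called higher and 3 lower at 4 h. Irf1, which binds the interferon element, rose most (3.36), and Rela (2.61) and Nfkb1 (2.55), both of the NF-κB family, were also called higher. The RFX complex binds next to the X2 box shown above, and its members were split: Rfx5, named after its value was seen, was called higher (2.07), and Rfxap (-0.85) and Rfxank (-1.04) were called lower. Ciita, the counterpart of Nlrc5 for class II, was also called lower (-1.31), at most 0.851 TPM in a PBS library. With library size alone 6 were called higher and 3 lower, and DESeq2 called 7 and 2. At LPS 30 min 2 of the 14 were already called higher, 0 lower and 12 not, beside 4.62% of all genes in either direction. Irf1 averaged 78.4 CPM in PBS, 547 at LPS 30 min and 805 at LPS 4 h (66.5, 369 and 360 TPM). Rela averaged 88.3, 168 and 539 CPM, and Nfkb1 82.0, 85.3 and 481 CPM. Of 11 interferon ligands, receptors and signalling genes 9 were tested and 5 were called higher at 4 h. Among these were Stat2 (2.86), Jak2 (2.53), Irf9 (2.04) and Jak1 (1.93). Ifnar1 (-0.21) and Tyk2 (-0.31) lay below 0 with no call, and with library size alone 4 of the 9 were called higher and 2 lower. Ifng and Ifnb1 did not pass the filter on low counts and were listed at 0 TPM in PBS and at 0.278 to 0.927 and 0.118 to 0.275 TPM at LPS 4 h.

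Salmon divided each gene's abundance among annotated transcripts, and several of these are annotated as retained introns, with no full reading frame. For B2m, H2-D1 and Tapbp over 94% of TPM lay in protein-coding transcripts in each group mean. In Tap2 this share was 31.8% in PBS and 28.2% at LPS 4 h, in Psmb10 41.7% and 38.3%, and in Nlrc5 22.4% and 19.5%. Counting coding transcripts alone, in TPM and so without a composition factor, the fold at 4 h over PBS was 16.0 for Nlrc5, 11.4 for Tap1, 4.89 for Psmb8, 3.90 for Psmb9, 3.45 for Tap2, 3.31 for Tapbp, 3.29 for Psmb10, 2.39 for H2-K1, 1.73 for B2m and 1.67 for H2-D1. In this order Psmb9 came before Tap2, and Tapbp before Psmb10, unlike in the gene totals. No SE was computed for these folds, and in the gene totals Psmb10 and Tapbp differed by 0.03 with a combined SE of 0.04. The order of Tapbp and Psmb10 is therefore not settled. Of the transcripts of Nlrc5, the coding Nlrc5-207 averaged 0.964 TPM in PBS and 31 TPM at LPS 4 h, the coding Nlrc5-201 1.97 and 15.6 TPM, and the retained-intron Nlrc5-203 8.44 and 146 TPM.

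For H2-K1 the groups stood apart in this share, which was not tested. Coding transcripts held between 67.4% and 68.8% of its TPM in the PBS libraries. The LPS 15 min libraries lay higher (between 70.9% and 73.5%), those of LPS 30 min lowest (between 56.7% and 59.0%) and those of LPS 4 h in between (64.8% to 66.1%), and no groups overlapped. At LPS 30 min its coding TPM was 600 to 622, below the 681 to 697 of PBS, while the gene total was above PBS, and retained-intron transcripts held a mean of 39.2%, against 30.1% in PBS. In Nlrc5 at LPS 30 min the coding share ran from 18.1% to 88.8% among the 3 libraries, at a gene level under 10 TPM.

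**Figure D5:**
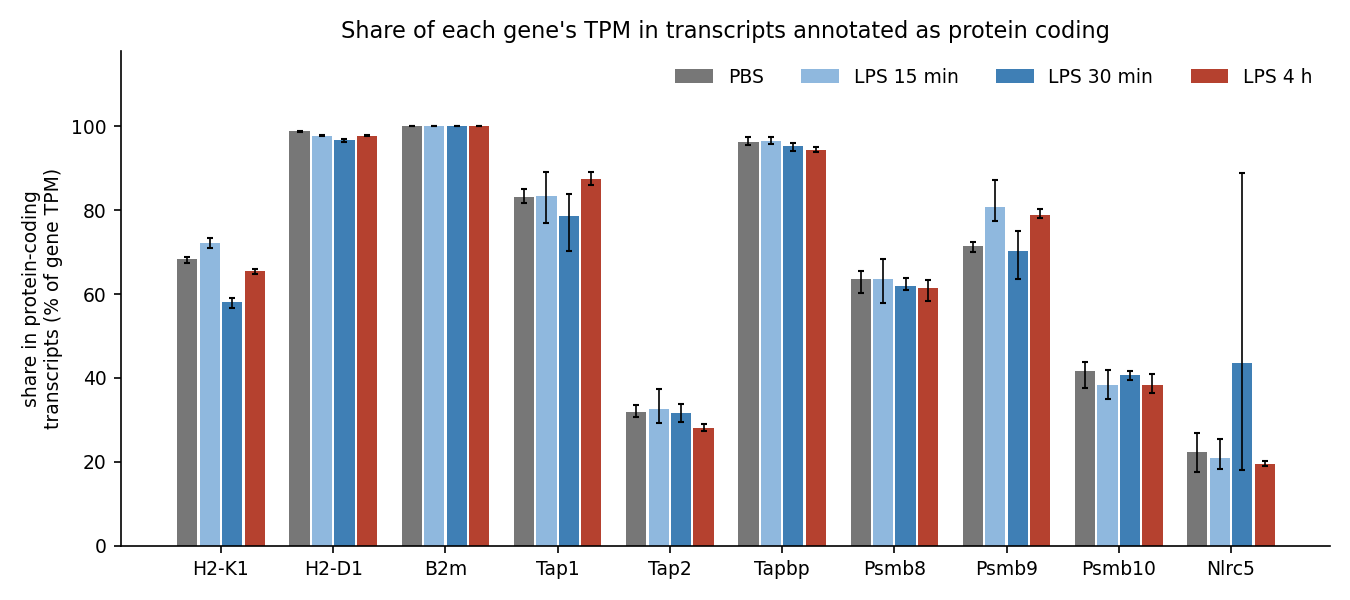
Share of each gene's TPM in transcripts annotated as protein coding, in percent, by group, with bars for means and error bars from the lowest to the highest of 3 libraries. H2-K1 averages 58.1% at LPS 30 min, and the Nlrc5 bar of that group spans 18.1% to 88.8%.

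The libraries were prepared without strand, so fragments of overlapping genes on opposite strands cannot be told apart. The overlap of Tap1 and Psmb9 is one such stretch. Antisense genes over Psmb8, Psmb10 and Tap2 held at most 22, 29 and 117 counts in a library, and the one over Nlrc5 at most 256, beside 397 to 10390 counts for Nlrc5. Zbtb22, which overlaps Tapbp by 3422 bases on the same strand, held 421 to 973 counts.

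Outside all lists, 5 of 14464 genes averaging 50 counts or more had the changes most like the medians of the 10 genes over the 3 LPS times, by Euclidean distance of the log2 changes against PBS. They were Pgm2 (2.69 at 4 h), Ascc3 (2.68), Ggct (2.78), Etv6 (2.73) and Gm48498 (2.53), at distances of 0.128 to 0.145. All 5 were less abundant than any of the 10 at LPS 4 h, with 10.7 to 52.5 TPM.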

How the data were processed

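Forebrain vessel RNA of 12 libraries was sequenced from SMART-Seq v4 cDNA, a kit that does not mark strand. Per the submitters' processing notes, the authors ran Salmon 1.2.1 and DESeq2 and used GRCm38.p6. The deposited Salmon files give an estimated count and a TPM for each transcript, and the deposited gene table gives a signal, the authors' normalized counts. Transcripts were joined by identifier to the GENCODE M21 annotation, and 139852 of 140948 matched. The rest held 0.482% to 0.850% of fragments. Counts were summed to genes and rounded.

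Groups were compared in edgeR 4.0.16 (R 4.3.3) with TMM factors, filterByExpr (minimum count 10, total 15), a quasi-likelihood fit of all 12 libraries and a threshold test at 0.58 on the log2 scale, with Benjamini-Hochberg adjustment over 19150 genes. The SE is the log2 fold change divided by the root of the quasi-likelihood F. The p-values measure the spread between libraries of a group, each given as a pool of 1 male and 1 female. This spread was small, with a root of edgeR's common dispersion of 0.0524. H2-K1 at LPS 30 min, for example, was 873 ± 6.8 CPM (SD, n = 3). How much of the spread lies between animals was not tested, so the very small SEs and p-values may not carry over to other mice. Ratios of TPM were compared by an exact two-sided permutation test. Alternatives used DESeq2 1.42.0 and limma 3.58.1, the latter on log2 of the authors' normalized counts plus 1 or 10, and scripts were tested on simulated data. Promoter windows came from RefSeq on GRCm38.p6.

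The members and lists were chosen with earlier results of these data known. All 10 members are named, all 3 constitutive subunits, up to 4 tested genes of each other list with the largest absolute log2 change at 4 h, any that went against their list's majority, and the 5 genes most like the members. Genes named outside this rule are marked, and 1 gene that the rule would name is not reported here.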

Additional observations from a re-analysis of the deposited data

Results flagged for a closer look

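The change from PBS differed between LPS 30 min and LPS 4 h for all 10 genes, tested directly as the contrast of the 2 times, which removes the shared PBS libraries. In edgeR's threshold test every adjusted p lay at or below 1.3e-21. On the log2 scale, LPS 4 h exceeded LPS 30 min by 1.85 for H2-K1, 1.51 for H2-D1 and 1.49 for B2m, the chains of the class I molecule. The difference was 4.46 for Tap1, 2.83 for Tap2 and 2.72 for Tapbp, the loading genes. It was 3.36 for Psmb8, 3.00 for Psmb9 and 2.70 for Psmb10, and 5.15 for the transactivator Nlrc5. With 3 libraries per group, single libraries were not examined as outliers.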

How the results depend on the processing

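Against PBS, 0 of the 10 genes were called at 15 min, 0 at 30 min and 10 at 4 h. Between 15 and 30 min 0 were called, and between 30 min and 4 h 10. These counts did not move with DESeq2, RLE factors, library size alone, no filter, a transcript length offset, only the 2 groups compared, and limma on the authors' normalized counts. Leaving out each library in turn gave 0 to 0 and 10 to 10. Without a fold limit the count was 8 at 15 min, 7 at 30 min and 6 between them. With class I chains summed, 9 features were called at 4 h in both comparisons. With the replicate block the counts were 0, 0, 10, 0 and 10. The library numbers did not pair the samples: 18 correlations of same-numbered deviations ran from -0.0672 to 0.0516, and 0 were over 0.1. Some uncalled values near 0 changed sign, such as Nlrc5 at 15 min (0.02 with the length offset) and Tap2 at 30 min (-0.14 with library size alone). The log2 ratios at 4 h ran over alternatives from 3.04 to 3.12 (Psmb8), 2.33 to 2.64 (Psmb9) and 2.18 to 2.45 (Psmb10), coding transcripts alone included. Over all genes, library size alone called 10523 genes at 4 h against 6315, and 8915 against 5530 between 30 min and 4 h; limma with 1 added called 375 against 814 at 15 min, 519 against 884 at 30 min and 407 against 911 between them. The cause of these differences was not tested.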
